A study of Mus musculus with 24 samples.

Results

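The Serpin probe sets of the liver arrays were defined as those whose single gene symbol in the platform annotation starts with Serpin, with Serpina7 left out. They numbered 55 of 45037 probe sets and stood for 39 genes, and 26 of them, for 20 genes, passed a filter on low values (above the median of all values, 3.15 on the log2 scale, in at least 6 of 24 arrays). A further 3 probe sets carried several Serpin symbols, and 2 of these passed the filter. Livers came from 24 female mice (strain label NMR-1., described as genetically identical), with no transgene or deletion named. All were 8 weeks old at the start and received 1 of 4 diets at will for 2 weeks, with 6 mice per diet, of which 3 were processed in each of 2 batches. The pellet diet was the feed on which the mice had grown up. The chimpanzee diet was vegetables, fruit and yogurt as given to captive chimpanzees, the cafeteria diet was cooked staff meals, and the fast food diet was McDonald's food alone. The last pair were also pooled as human diets (12 mice). Litters were spread over the groups and are not labelled.

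Serpins are a large protein family, and most members inhibit serine proteases: the protease cuts an exposed loop of the serpin and is then held in a dead covalent complex. Hepatocytes secrete many of them into plasma, where they restrain clotting, fibrin breakdown, complement and the proteases of neutrophils. Other members have lost the inhibitory role and carry hormones or assist collagen folding, and those of clade B mostly act inside cells.

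Values are log2 expression values, so a difference of 1 is a 2-fold change, and a level of 1 probe set cannot be set against that of another. The defining hepatocyte markers were high in every diet, with a mean over 8 genes between 11.4 and 11.6. The 90th percentile of an array lay between 6.42 and 6.62 in batch 1 and between 5.67 and 6.35 in batch 2. RNA integrity was read from beta-actin controls, as the 3' value minus the 5' value. It had a mean of 0.754 ± 0.135 (SD, n = 6) under the pellet diet, 1.08 ± 0.15 under the chimpanzee diet, 0.906 ± 0.054 under the cafeteria diet and 0.800 ± 0.126 under the fast food diet. As these are bulk livers, fewer cells of a type and less RNA per cell cannot be told apart.

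Few Serpin probe sets differed between diets. Serpina12 (vaspin) was the only member that differed among the 4 diets after adjustment over all probe sets, 1 of 26 beside 7.22% of all 25544 probe sets tested. It was also the only member called between the human diets and the pellet diet, where it was lower (1 of 26, beside 4.03% of all probe sets in either direction and 2.35% called lower). Under the chimpanzee diet, Serpinf2 and Serpind1, both inhibitors of the clotting and fibrinolytic system, were lower than under the pellet diet (2 of 26, beside 8.69% in either direction and 6.14% called lower). No member was called between the human diets and the chimpanzee diet, where 0.767% of all probe sets were, or between the cafeteria and fast food diets, where 0.0235% were. The shares of members called in these comparisons rest on 0 to 2 probe sets and lie close to or below the shares over all probe sets in either direction.

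Serpina12 encodes vaspin, a serpin of clade A that is known as a secreted adipokine and is also made in liver. It was read by probe set 1421092_at. Under the pellet diet its level ranged from 5.49 to 7.35 with a median of 6.22. Under the chimpanzee diet it ranged from 4.97 to 6.46 with a median of 5.38. Under the cafeteria diet the lowest, median and highest mouse were at 4.52, 4.57 and 6.46, and under the fast food diet at 4.27, 4.73 and 6.02. Mice on the human diets were low with 1 exception per diet: 10 of the 12 lay below the lowest pellet mouse, and the other pair lay within the pellet range. The same 10 mice also lay below the lowest mouse on the chimpanzee diet. The chimpanzee group lay between, and 4 of its 6 mice were below the lowest pellet mouse.

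The human diets minus the pellet diet gave a log2 difference of -1.41 ± 0.29 (SE) for Serpina12, a 2.66-fold lower level (95% interval -2.02 to -0.80, adjusted p = 0.00678, limma). The difference was -1.70 within batch 1 and -1.12 within batch 2. Among the 4 diets the adjusted p was 0.0209. The chimpanzee diet minus the pellet diet gave -0.77 ± 0.34 (interval -1.48 to -0.05, adjusted p = 0.198), and the human diets minus the chimpanzee diet gave -0.65 ± 0.29 (interval -1.25 to -0.04, adjusted p = 0.345), so neither was called. The cafeteria and fast food diets had means of 4.89 and 4.87 and differed by 0.03, with an interval of -0.68 to 0.74 that leaves room for a change in either direction. That difference was -0.67 within batch 1 and 0.72 within batch 2. The comparisons against pellets share the same 6 pellet mice. The call among the 4 diets was lost when pellet replicate 1 of batch 1 or pellet replicate 3 of batch 2 was left out.

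**Figure D1:**
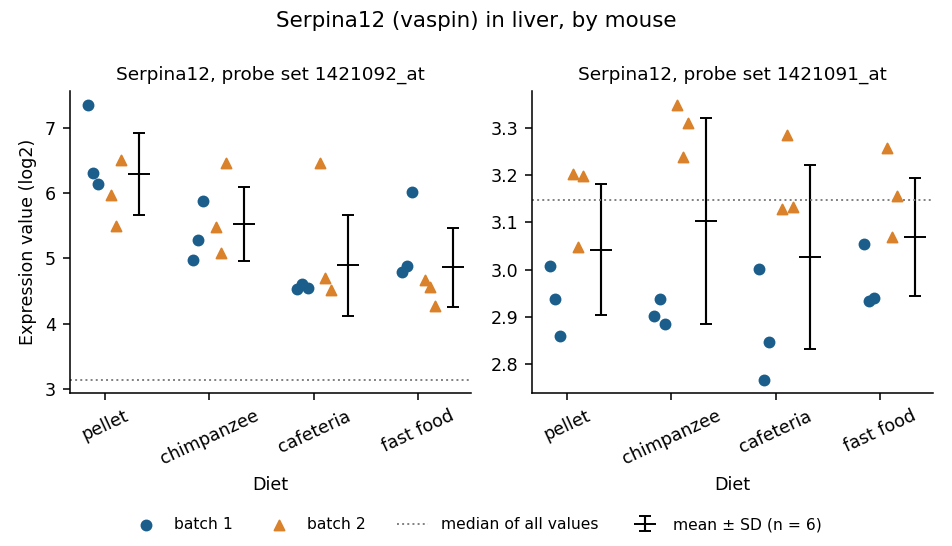
Log2 expression of both Serpina12 probe sets in each of 24 mouse livers by diet, with batch 1 as circles, batch 2 as triangles, and mean ± SD (n = 6) as black bars. On 1421092_at, 10 of 12 mice on the cafeteria and fast food diets lie below the lowest pellet mouse at 5.49, while 1421091_at stays near the median of all values (dotted line) and differs mainly between batches.

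The second Serpina12 probe set, 1421091_at, lay at the level of the filter, above the median of all values in only 8 arrays. Its diet means were between 3.03 and 3.10, and batch 2 was 0.28 above batch 1. Its human minus pellet difference was 0.01 (interval -0.11 to 0.12), so the fall on 1421092_at had no counterpart there, and 1421091_at has too little signal above background to test it. Vaspin is also a product of fat, and 4 of 6 adipocyte markers could be read. Of these, Adipoq, Lep and Cidec were below the filter. The mean of the list ranged from 2.87 to 2.93 over the diets, under the median of all values. The 1 marker past the filter had a human minus pellet difference of 0.06 and was not called. The part of fat cells in the Serpina12 result was not tested. None of 8 hepatocyte markers was called in this comparison, with a median difference of -0.02.

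For the 3 Serpin genes called in any comparison, the 250 bases before the RefSeq start are shown (assembly GRCm38.p6). Of the 39 member genes, 33 had an entry in the RefSeq promoter table. Capitals mark matches on either strand to a TATA box (TATAAA), an HNF1 half-site (GTTAAT), a nuclear receptor half-site (AGGTCA), a C/EBP motif (TTGCNNAA), a CCAAT box (CCAAT) or a canonical E-box (CACGTG). Serpina12 lies on the minus strand of chromosome 12, with this window at chr12:104044444-104044693. Serpinf2 lies on the minus strand at chr11:75439502-75439751, and Serpind1 on the plus strand at chr16:17331121-17331370.
Serpina12: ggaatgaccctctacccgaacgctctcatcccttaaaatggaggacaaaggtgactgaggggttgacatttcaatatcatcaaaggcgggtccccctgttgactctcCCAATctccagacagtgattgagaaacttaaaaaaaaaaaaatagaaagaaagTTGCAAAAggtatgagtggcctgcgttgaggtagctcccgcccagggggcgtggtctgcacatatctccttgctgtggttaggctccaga
Serpinf2: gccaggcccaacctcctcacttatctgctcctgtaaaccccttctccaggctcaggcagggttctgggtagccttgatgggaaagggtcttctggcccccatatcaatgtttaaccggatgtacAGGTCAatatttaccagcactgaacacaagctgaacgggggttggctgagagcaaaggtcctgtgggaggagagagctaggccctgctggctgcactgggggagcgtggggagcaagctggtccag
Serpind1: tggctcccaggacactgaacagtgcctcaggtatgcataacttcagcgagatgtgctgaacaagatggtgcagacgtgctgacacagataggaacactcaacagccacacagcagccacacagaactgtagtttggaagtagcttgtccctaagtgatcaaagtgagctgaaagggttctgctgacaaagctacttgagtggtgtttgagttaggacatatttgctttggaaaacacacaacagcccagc

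The Serpina12 window held a CCAAT box 143 to 139 bases before the start and a C/EBP motif 90 to 83 bases before it. The Serpinf2 window held a nuclear receptor half-site 126 to 121 bases before the start, and the Serpind1 window held none of the 6 motifs. Over 32851 promoter windows of the same length, 33.85% held the CCAAT box, 9.56% the C/EBP motif and 14.0% the nuclear receptor half-site. The 3 windows thus shared no searched motif, and a match describes letters only.

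Serpina4-ps1 was singled out after its values were seen, since 2 of its 3 probe sets had the largest human minus pellet differences of any member and did not pass the threshold. The RefSeq table lists it as a transcribed pseudogene related to kallistatin, and it neighbours Serpina12 in the clade A cluster. On probe set 1444296_a_at the lowest, median and highest pellet mouse were at 8.59, 9.42 and 9.99. The chimpanzee diet gave 7.69, 9.31 and 9.52. The cafeteria diet gave 5.24, 7.85 and 9.36, and the fast food diet 7.19, 8.21 and 8.47. As for Serpina12, 10 of 12 mice on human diets lay below the lowest pellet mouse, and on 1444297_at 9 of 12 did. Cafeteria replicate 1 of batch 2 was the highest cafeteria mouse for both genes. The other exception was fast food replicate 3 of batch 1 for Serpina12 and cafeteria replicate 3 of batch 1 on 1444296_a_at. The lowest Serpina4-ps1 mouse, cafeteria replicate 1 of batch 1, was at 4.53 in Serpina12, among the cafeteria mice between 4.52 and 4.70. With diet and batch accounted for, Serpina12 correlated with the 3 Serpina4-ps1 probe sets at only 0.278 to 0.287 over 24 mice.

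All 3 probe sets of Serpina4-ps1 gave the same order of diet means, with pellet highest, then chimpanzee, fast food and cafeteria. The human diets minus the pellet diet gave -1.46 ± 0.41, -1.63 ± 0.47 and -1.38 ± 0.42 (SE) on 1444296_a_at, 1444297_at and 1448092_x_at, with adjusted p of 0.0519, 0.0572 and 0.0775. Without cafeteria replicate 1 of batch 1 the adjusted p became 0.0185, 0.0298 and 0.0249, and without cafeteria replicate 1 of batch 2 it became 0.0231, 0.0241 and 0.0334. On 1444296_a_at and 1444297_at it also passed without cafeteria replicate 3 of batch 1 (0.0380 and 0.0446) or pellet replicate 1 of batch 2 (0.0441 and 0.0465). In 14, 14 and 16 of 18 fits with 1 mouse left out, the 3 probe sets stayed uncalled. The adjusted p rose as far as 0.153, 0.165 and 0.202 in these fits. The human diets minus the chimpanzee diet gave -1.08, -0.88 and -1.04, with adjusted p between 0.271 and 0.455, and within batches the first of these was -1.55 and -0.61. The probe sets read the same gene and are not independent, and the suffix of 1448092_x_at marks a design that can also read related sequences.

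**Figure D2:**
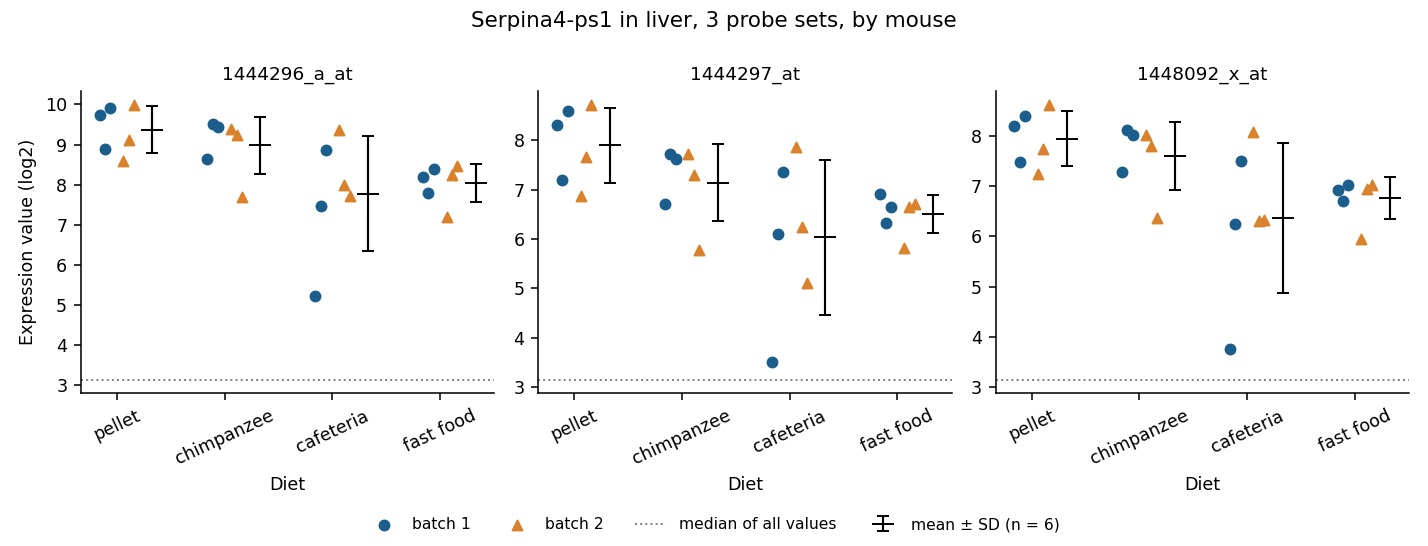
Log2 expression of the 3 Serpina4-ps1 probe sets in 24 mouse livers by diet, with batch 1 as circles, batch 2 as triangles, mean ± SD (n = 6) as black bars and the median of all values as a dotted line. The 3 panels place the mice alike, with a single cafeteria mouse lowest at 5.24, 3.504 and 3.75, and the cafeteria group spans the widest range.

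Spread between mice set these 4 probe sets apart from the other members. After diet and batch were accounted for, the residual SD was 0.658 for Serpina12 and 0.906, 1.004 and 0.909 for the Serpina4-ps1 probe sets, at the 99.7th percentile of all 25544 probe sets or above. For the other 22 members past the filter it ranged from 0.0877 to 0.316, between the 1.79th and 89.0th percentile.

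Serpinf2 encodes alpha2-antiplasmin, the main inhibitor of plasmin, and was read by 1417498_at. Its lowest, median and highest values were 10.14, 10.36 and 10.42 under the pellet diet. They were 9.65, 10.04 and 10.23 under the chimpanzee diet, 9.95, 10.26 and 10.38 under the cafeteria diet, and 9.75, 10.15 and 10.32 under the fast food diet. Of the 6 chimpanzee-diet mice, 5 lay below the lowest pellet mouse, and the sixth lay inside the pellet range. The chimpanzee diet minus the pellet diet gave -0.32 ± 0.09 (SE), a 1.25-fold lower level (interval -0.51 to -0.13, adjusted p = 0.0323), with -0.28 in batch 1 and -0.36 in batch 2.

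Serpind1 encodes heparin cofactor II, a thrombin inhibitor, and was read by 1418680_at. Pellet mice ranged from 10.06 to 10.44 with a median of 10.24, and chimpanzee-diet mice from 9.62 to 10.14 with a median of 9.99. Cafeteria mice ranged from 9.85 to 10.19 and fast food mice from 9.66 to 10.28. The pellet and chimpanzee groups overlapped in part, since 4 of 6 chimpanzee-diet mice were below the lowest pellet mouse. Their difference was -0.32 ± 0.10 (SE), also 1.25-fold (interval -0.53 to -0.12, adjusted p = 0.0434), with -0.19 in batch 1 and -0.46 in batch 2.

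Neither call held in the fit with the beta-actin difference as a covariate, where Serpinf2 gave -0.42 (adjusted p = 0.172) and Serpind1 -0.31 (adjusted p = 0.479). Both calls were also lost without chimpanzee replicate 1 or 3 of batch 2, or without pellet replicate 1 or 3 of batch 1 or pellet replicate 3 of batch 2, and their adjusted p then lay between 0.0631 and 0.128. Kupffer cell and macrophage markers moved in the same comparison: 4 of 10 (Cd68, Csf1r, Clec4f and C1qb) were lower, beside 6.14% of all probe sets. The mean of the list ranged from 5.72 to 6.52 under the pellet diet and from 4.88 to 6.06 under the chimpanzee diet. Of 8 sinusoidal endothelial markers only 1, Oit3, was lower (-0.59), and of 10 stellate cell markers only 1, Col3a1 (-1.22). These counts of 1 are too small to set against that share. None of 8 hepatocyte markers was called, with a median difference of -0.06. The part of these cells in the result was not tested.

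The human diets minus the pellet diet gave -0.15 (interval -0.31 to 0.01) for Serpinf2 and -0.19 (interval -0.37 to -0.02, adjusted p = 0.299) for Serpind1, and neither was called. Serpinc1, or antithrombin, the chief inhibitor of thrombin and factor Xa, lay between 11.46 and 12.01 in all mice, with diet means from 11.74 to 11.86. Of 6 chimpanzee-diet mice, 3 lay below the lowest pellet mouse. The chimpanzee minus pellet difference was -0.08 (interval -0.25 to 0.09). That interval does not reach the -0.32 measured for the other pair, though the genes were not tested against each other.

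**Figure D3:**
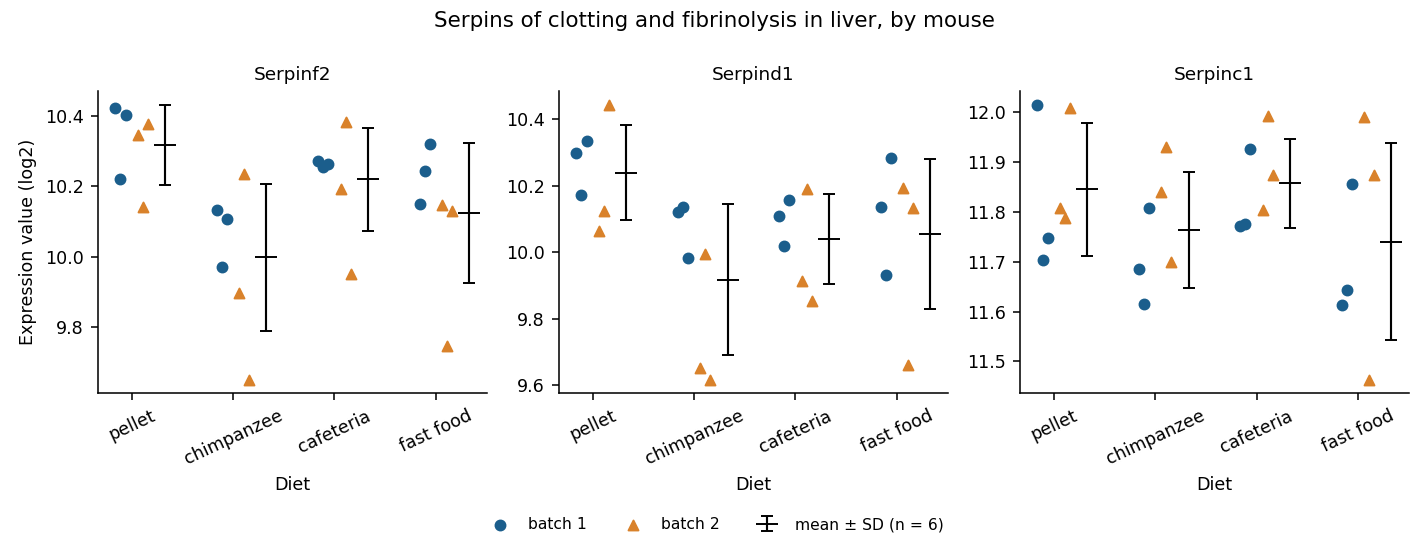
Log2 expression of Serpinf2, Serpind1 and Serpinc1 in 24 mouse livers by diet, with batch 1 as circles, batch 2 as triangles and mean ± SD (n = 6) as black bars; each panel has its own vertical scale. For Serpinf2 and Serpind1, 5 and 4 of the 6 chimpanzee-diet mice lie below the lowest pellet mouse, and for Serpinc1 3 of 6 do.

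Serpina10, the protein Z-dependent inhibitor of factor Xa, was highest under the pellet diet, with a mean of 10.23 ± 0.15 (SD, n = 6) against 10.10 ± 0.12 under the chimpanzee diet, 10.04 ± 0.15 under the cafeteria diet and 9.999 ± 0.191 under the fast food diet. Of 12 mice on human diets, 6 were below the lowest pellet mouse. Its human minus pellet difference of -0.21 ± 0.08 (SE) had an adjusted p of 0.183. Serping1, the inhibitor of complement C1s and plasma kallikrein, had diet means from 10.87 to 11.01 and a smallest adjusted p of 0.389. Serpina5, the protein C inhibitor, was below the filter with diet means from 2.50 to 2.56.

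Alpha1-antitrypsin, which protects tissue from neutrophil elastase, is encoded in mice by several nearly identical Serpina1 genes. The probe sets with a single symbol named Serpina1b (1418282_x_at and 1451513_x_at) and Serpina1c (1448680_at). Their diet means lay between 12.09 and 12.41, and over all 4 pairwise comparisons their differences ranged from -0.10 to 0.13, with intervals within -0.30 to 0.33. The suffix x marks probes that can match several genes, so values cannot be assigned to 1 paralog with certainty.

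Shared probe sets gave a less even picture. The one for Serpina1e, Serpina1c and Serpina1b (1449321_x_at) ranged from 8.998 to 9.72 under the pellet diet, from 8.28 to 9.23 under the chimpanzee diet, from 8.56 to 9.31 under the cafeteria diet and from 8.60 to 9.31 under the fast food diet. Of 6 pellet mice, 5 lay above every chimpanzee-diet mouse. The chimpanzee minus pellet difference was -0.38 ± 0.13 (SE, adjusted p = 0.0609) and the human minus pellet difference -0.33 ± 0.10 (adjusted p = 0.0816), and neither was called. The probe set for Serpina1d and Serpina1a (1420553_x_at) gave -0.13 and -0.16, with adjusted p of 0.495 and 0.472. Serpina1a, Serpina1d and Serpina1e had no probe set of their own.

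Serpina6 encodes corticosteroid-binding globulin, which carries glucocorticoids and inhibits no protease. Its lowest, median and highest values were 10.88, 11.19 and 11.48 under the pellet diet and 11.01, 11.32 and 11.62 under the chimpanzee diet. They were 11.21, 11.42 and 11.79 under the cafeteria diet and 11.26, 11.44 and 11.78 under the fast food diet. The groups overlapped widely, and 5 of 12 mice on human diets were above the highest pellet mouse. The human minus pellet difference was 0.32 ± 0.11 (SE, interval 0.09 to 0.54, adjusted p = 0.128) and came to 0.32 within each batch. It was the largest positive difference of a member there and was not called.

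Serpina3n, an acute phase relative of alpha1-antichymotrypsin, had diet means from 9.65 to 9.80. Serpinf1 encodes pigment epithelium-derived factor, which does not inhibit proteases, and its probe sets 1416168_at and 1453724_a_at had means from 10.64 to 10.70 and from 9.84 to 9.97. Together with Serpina11, these gave differences from -0.14 to 0.15 in the 4 pairwise comparisons and a smallest adjusted p of 0.465. Serpina3k and Serpina3m, close relatives of Serpina3n, were not analysed here, since no probe set carried either symbol, alone or shared.

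Among serpins that act inside cells, Serpinb9, an inhibitor of granzyme B, was low and close to the filter. On 1422601_at it ranged from 3.26 to 4.04 under the pellet diet, from 3.12 to 3.55 under the chimpanzee diet, from 3.17 to 4.26 under the cafeteria diet and from 3.13 to 4.41 under the fast food diet. Of 12 mice on human diets, 7 were above every chimpanzee-diet mouse. The human minus chimpanzee difference of 0.44 ± 0.16 (SE) was the largest positive one of a member there but had an adjusted p of 0.207, and chimpanzee minus pellet gave -0.42 ± 0.17 (adjusted p = 0.145). Batch 2 lay 0.40 below batch 1. The second Serpinb9 probe set, 1439790_at, was below the filter, above the median of all values in 0 arrays. Its diet means ranged from 2.53 under the chimpanzee diet to 2.58 under the pellet and fast food diets.

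Serpinb6a, an inhibitor of cathepsin G, had means of 4.90 under pellets, 4.83 under the chimpanzee diet, 5.08 under the cafeteria diet and 5.09 under fast food. Its human minus chimpanzee difference of 0.25 ± 0.12 (SE, adjusted p = 0.358) was 0.43 in batch 1 and 0.08 in batch 2. Serpinh1, also called HSP47, the collagen chaperone of the endoplasmic reticulum, was near the filter on 1450843_a_at, with diet means from 3.12 to 3.34, and had means from 4.18 to 4.23 on 1456733_x_at. The smallest adjusted p of these probe sets was 0.450.

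**Figure D4:**
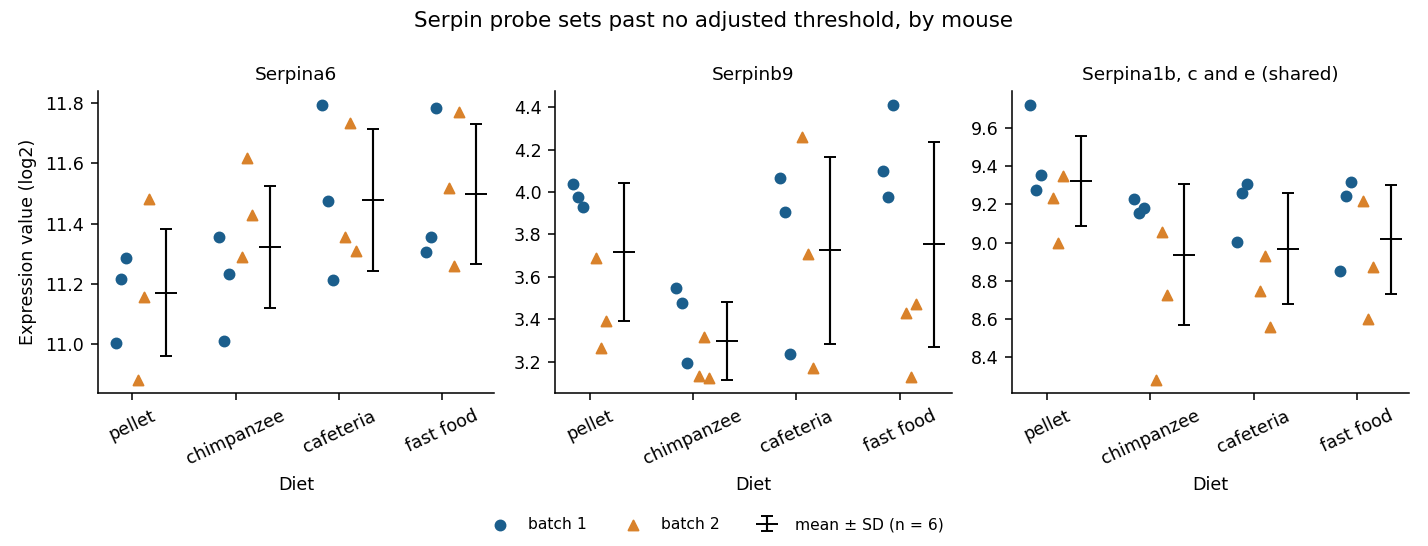
Log2 expression of Serpina6, Serpinb9 and the probe set shared by Serpina1b, Serpina1c and Serpina1e in 24 mouse livers by diet, with batch 1 as circles, batch 2 as triangles and mean ± SD (n = 6) as black bars; each panel has its own vertical scale. Serpina6 medians run from 11.19 under pellets to 11.44 under fast food. Serpinb9, read by 1422601_at, is lowest under the chimpanzee diet. The shared probe set is highest under pellets, and groups overlap in every panel.

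The 29 members below the filter had diet means between 2.21 and 3.05, and 25 of them were above the median of all values in no array. They included the probe sets of Serpinb2, Serpinb5, Serpinb7, Serpini1 and Serpini2. The largest gap between their diet means was 0.315, on Serpinb1a probe set 1416318_at (an inhibitor of neutrophil proteases), with 2.68 under pellets, 2.64 under the chimpanzee diet, 2.95 under the cafeteria diet and 2.96 under fast food. These levels were under the median of all values, and the probe set was above it in only 2 arrays. The second Serpinb1a probe set, 1448301_s_at, was above that median in 0 arrays. Its means were 2.49 under pellets, 2.42 under the chimpanzee diet, 2.50 under the cafeteria diet and 2.49 under fast food. Just inside the filter stood Serpina12 1421091_at with 8 arrays and Serpina3a with 10, and just outside it Serpinb5 1421752_a_at with 4.

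Over the 26 members past the filter, the median difference was -0.04 for human minus pellet, -0.07 for chimpanzee minus pellet, -0.03 for human minus chimpanzee and -0.001 for cafeteria minus fast food, beside medians over all probe sets of -0.003, 0.001, 0.001 and -0.006. At an unadjusted p under 0.05 (limma), 8 of 26 members passed among the 4 diets, Serpina4-ps1 probe sets included, beside 19.2% of all probe sets. Between human and pellet diets 7 of 26 passed, 3 of them Serpina4-ps1 probe sets, beside 13.5% of all probe sets. Between chimpanzee and pellet diets 4 of 26 passed, beside 20.6%. For human against chimpanzee, 5 members passed that unadjusted level beside 13.2% of all probe sets, and 0 passed after limma's adjustment. By the study's own kind of linear model 0 members passed, beside 1054 of 24933 probe sets. That model called an unadjusted p under 0.01 and left out probe sets with an interaction of diet and batch (p under 0.05). For cafeteria against fast food, 0 members passed by limma before or after adjustment or by that model, beside 5.16% of all probe sets at the unadjusted level. Apart from Serpina12 1421092_at and Serpina4-ps1, the differences of the other 22 members all lay between -0.42 and 0.44 over the 4 comparisons. The 95% interval stayed within 0.5 of 0 on the log2 scale for 21 of 26 members in human against pellet, 19 in chimpanzee against pellet, 21 in human against chimpanzee and 22 in cafeteria against fast food.

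**Figure D5:**
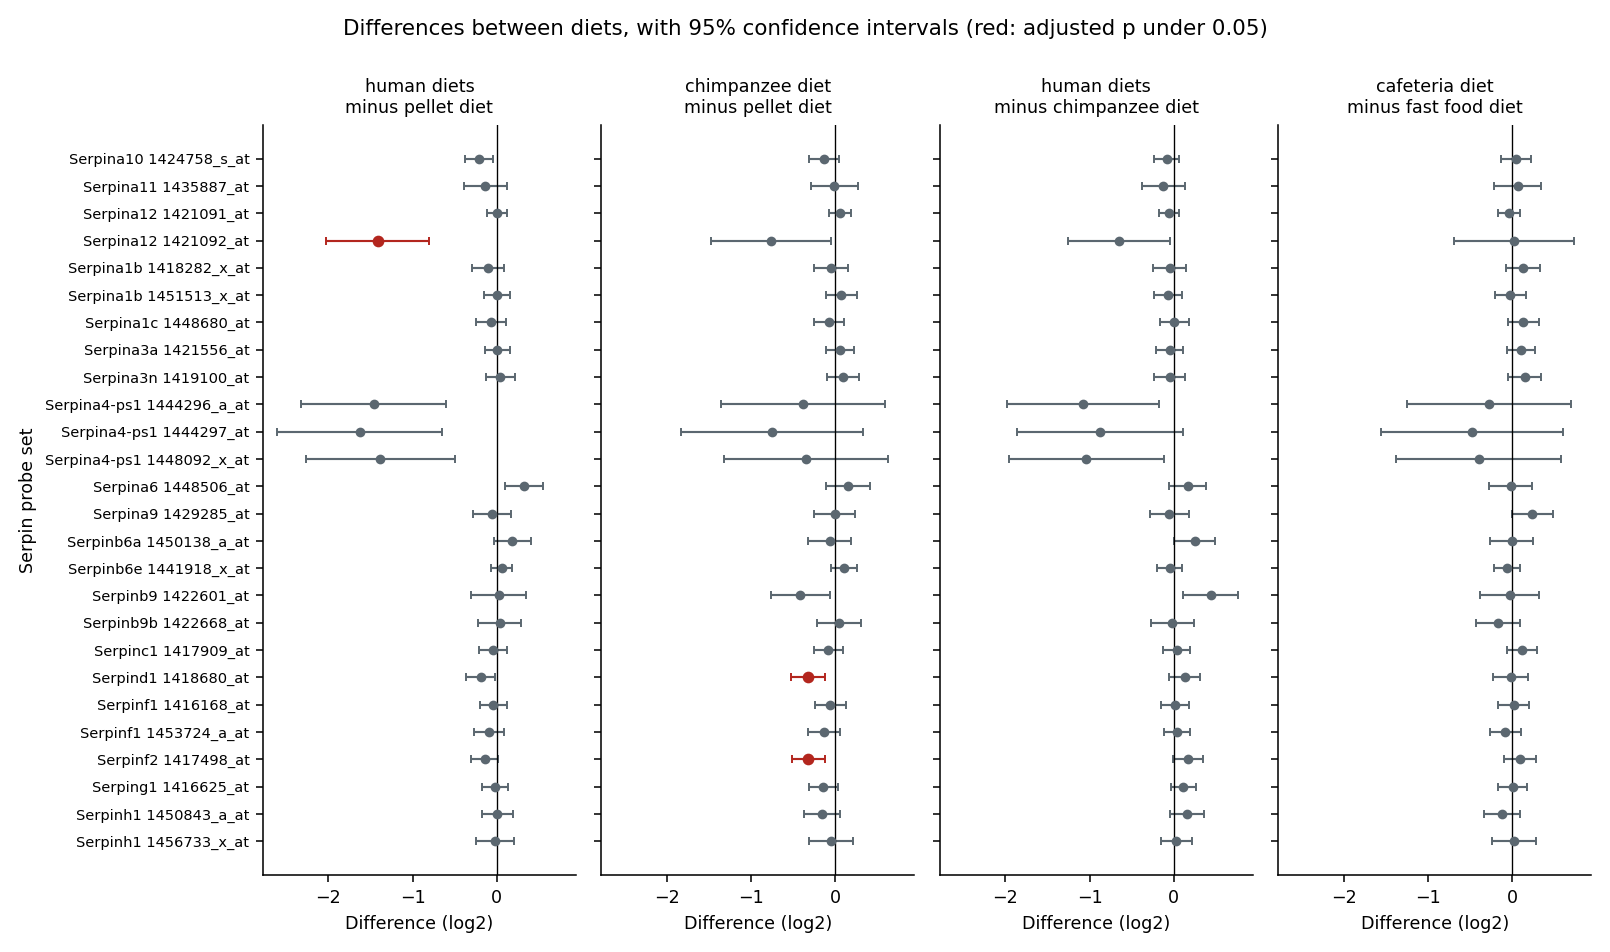
Log2 differences of the 26 Serpin probe sets past the filter in 4 comparisons of diets, with points as limma estimates, bars as 95% confidence intervals and red marking an adjusted p under 0.05. Red points are Serpina12 1421092_at at -1.41 in human minus pellet and Serpinf2 and Serpind1 at -0.32 in chimpanzee minus pellet, and the widest intervals are those of Serpina12 1421092_at and Serpina4-ps1.

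Genes that work with serpins were read from lists. Of 32 measured proteases (targets of serpins and proteases of the same cascades), 3 fell and 29 were not called under human diets against pellets, and 1 rose and 5 fell under the chimpanzee diet against pellets. Over all probe sets, 2.35% were called lower in the first comparison, and 6.14% lower and 8.69% in either direction in the second. The 3 were the coagulation factor F11 (-0.64 ± 0.16 SE, adjusted p = 0.0262), prostasin or Prss8 (-0.49) and cathepsin L or Ctsl (-0.28). Under the chimpanzee diet Prss8 (-0.48), Ctsl (-0.40) and Habp2, a plasma protease of the hyaluronan-binding type (-0.60), were lower, and hepsin or Hpn was higher (0.34). The median over the list was -0.05 and -0.06 in these comparisons, and 0 of 32 were called in either of the other pairwise comparisons by limma, with 3 (human against chimpanzee) and 0 (cafeteria against fast food) at an unadjusted p under 0.05.

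Of 21 measured protease inhibitors of other families, 1 fell under human diets against pellets, Itih1 (-0.26). Under the chimpanzee diet Itih1 (-0.43) and Tfpi2, a Kunitz-type inhibitor (-1.32 ± 0.21 SE, 2.50-fold, adjusted p = 0.000305), were lower. Among 13 measured cofactors, receptors and chaperones, calreticulin or Calr fell in both comparisons with pellets (-0.53 and -0.55) and Hspa5, the chaperone BiP, fell under human diets (-0.48). Under the chimpanzee diet Proz, the cofactor of Serpina10, was lower (-0.38) and P4ha1, a collagen prolyl hydroxylase subunit, was higher (0.59). Of 18 acute phase genes, 4 fell and 1 rose under human diets against pellets, beside 4.03% of all probe sets called in either direction and 2.35% called lower. Orm2 (-0.999 ± 0.121 SE), Apcs (-0.55) and Orm1 (-0.51) were among those lower, and Saa4 was higher (0.28). Against the chimpanzee diet, Orm2 (-0.50) and Lcn2 (-1.28) were lower under human diets. Under the chimpanzee diet against pellets, Orm2 was lower (-0.50) and Il1r1, an interleukin 1 receptor, was higher (1.16). The share called over all probe sets was 8.69% for chimpanzee against pellet and 0.767% for human against chimpanzee. Cafeteria against fast food gave 0 calls by limma in each of these lists. Serpina3n, often counted with these genes, had a smallest adjusted p of 0.674 over the pairwise comparisons.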

How the data were processed

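Total liver RNA of 24 mice was hybridised to Affymetrix mouse genome arrays, 1 per mouse. The authors deposited log2 expression values made with rma (affy), whose version is not given in the sources used here. Rma corrects background, normalizes by quantiles and summarizes probes, which compresses differences near background. The deposited arrays still differed in range, with 90th percentiles from 5.67 to 6.62, so they were not aligned over all 24 arrays. They were fitted as deposited, and the counts called changed when they were normalized again. Groups and batches came from sample titles. Of 45101 probe sets, 64 controls were set aside, and 25544 passed the filter. The platform annotation gave 1 symbol for 34945 probe sets. Differences were fitted with limma 3.58.1 in R 4.3.3 and a batch term, and p-values, two-sided, were adjusted by Benjamini-Hochberg over every probe set past the filter (threshold 0.05). Human diets were compared in fits of 18 mice, and other pairs and the F test among diets in 1 fit of 24. The fits were tested on simulated data. The members and lists were chosen with earlier results of these data known. Named were genes called in any of 5 tests and serpins of known liver or plasma role. For each list, up to 4 called genes of smallest p per comparison were named. Alternatives covered filters, probe sets per gene, batch, the replicate block, normalization, array range and quality, the mice fitted, the methods' linear model and each mouse left out. The number of arrays limits precision.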

Additional observations from a re-analysis of the deposited data

Results flagged for a closer look

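Each diet's 6 mice were examined on every member past the filter for a single mouse far from the others (Dixon's ratio), and 9 of 104 groups had one. Chance gives about 5% of groups, and the groups share mice.

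For Serpina12, cafeteria replicate 1 of batch 2 was at 6.46, above the 4.52 to 4.70 of the other cafeteria mice. Fast food replicate 3 of batch 1 was at 6.02, above the 4.27 to 4.89 of its group. These are the 2 mice that kept the human diets from lying wholly below the pellet range. For Serpina4-ps1 on 1448092_x_at, fast food replicate 1 of batch 2 was at 5.95, below 6.70 to 7.04.

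Fast food replicate 2 of batch 2 was below its group on Serpinf2, at 9.75 against 10.13 to 10.32, and on Serpina10, at 9.63 against 9.99 to 10.19. Serpina3n was low in cafeteria replicate 3 of batch 2, at 9.41 against 9.80 to 9.96. Serpinb6a was high in chimpanzee replicate 1 of batch 1, at 5.16 against 4.63 to 4.83.

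Pellet replicate 1 of batch 2 was low on both Serpinh1 probe sets, at 3.08 against 3.29 to 3.33 on 1450843_a_at and at 3.57 against 4.26 to 4.63 on 1456733_x_at.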

How the results depend on the processing

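Among 4 diets, 1 Serpin probe set was called as reported. That count became 0 with batch left out of the fit or in batch 2 alone, 2 without the 4 arrays of lowest 90th percentile, 4 with cyclic loess, quantile normalization or the 90th percentile as covariate, and 7 with array weights. With each mouse left out it ranged from 0 to 4, with 4 without cafeteria replicate 1 of batch 2, and 2 without chimpanzee replicate 2 or 3 of batch 2 or cafeteria replicate 1 or 3 of batch 1. For human diets against pellets the 1 call became 0 in batch 2 alone, where Serpina12 gave -1.12 with an adjusted p of 0.773. It became 2 with 1 probe set per gene, with no filter (adding Serpinb1a) or without the 4 arrays of lowest range, and 3 with the stricter filter, the methods' procedure or all 24 mice in the fit. It became 4 with the 90th percentile as covariate, 5 with array weights and 6 with either normalization, and ranged from 1 to 4 with each mouse left out. Serpina4-ps1 passed in 8 of 15 settings on 1444296_a_at, 7 of 14 on 1444297_at and 4 of 14 on 1448092_x_at. Serpina12 kept its call against pellets in the other 14 settings and without each of 18 mice (log2 difference -1.58 to -1.21).

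For the chimpanzee diet against pellets the 2 calls became 0 with batch left out, in batch 2 alone, with the beta-actin difference as covariate or by the methods' procedure, and 1 with no filter, the 90th percentile as covariate or the 4 arrays removed. In batch 1 alone 1 was called (Serpina12), and 4 were with array weights. With each mouse left out the count ranged from 0 to 2, and both differences stayed negative. Serpinf2 alone was lost without chimpanzee replicate 2 of batch 1 or pellet replicate 1 of batch 2. Serpind1 alone was lost without chimpanzee replicate 3, fast food replicate 1 or cafeteria replicate 1 or 3 of batch 1, or pellet replicate 2 of batch 2. Against the chimpanzee diet, human diets gave 1 call with array weights (Serpinb9) and 0 otherwise. Cafeteria against fast food gave 0 throughout.

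In the replicate block fit, both chimpanzee calls were lost (0 called, adjusted p 0.0507 for Serpinf2 and 0.0690 for Serpind1), and Serpina12 kept its call. Residuals of same-numbered mice of a batch on different diets correlated from -0.575 to 0.359 over 36 pairs (median -0.066). Those of differently numbered mice of the same batch correlated from -0.515 to 0.588 over 72 pairs (median -0.057). Litters are not labelled, so these values cannot decide whether the numbers pair littermates.

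The differences of Serpina12 (1421092_at) against pellets and of Serpinf2 and Serpind1 between the chimpanzee and pellet diets stayed negative in each setting run. Members near background, such as Serpinb9 and Serpinh1, have compressed differences.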
